A study of Mus musculus with 1298 samples.

Results

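The Hox genes are described here across the descendants of Pax7-expressing cells of the mouse embryo. The members were taken by symbol alone, as every protein-coding gene named Hoxa, Hoxb, Hoxc or Hoxd followed by a number from 1 to 13, and no expression value was used to choose them. There were 39 such genes of 26724 genes over all tables: 39 of 17634 in the droplet (10x) table, 34 of 22894 in the full-length single-cell (Smart-seq2) table and 35 of 22938 in the bulk table. By cluster they were 11 Hoxa, 10 Hoxb, 9 Hoxc and 9 Hoxd genes.

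All embryos carried Pax7-CreER, in which the Pax7 locus drives a tamoxifen-dependent Cre recombinase, together with R26R-stop-EYFP, so that a cell that expressed Pax7 when tamoxifen was given at E9.5 passed yellow fluorescent protein (YFP) on to all its descendants. YFP+ cells were sorted from pooled embryos of 3 stages (E12.5, E14.5, then E16.5) after head, limbs and viscera had been taken off, and were profiled by 10x in 1 library a day and by Smart-seq2 in plates. In bulk RNA-seq there were 6 freshly sorted libraries labelled E16.5, 2 of Cd36+ cells and 4 of Pdgfra+ cells of both Thy1 signs (Thy1 is a surface protein of fibroblasts), and 12 libraries of sorted E14.5 Pdgfra+ cells of both Thy1 signs grown in adipogenic medium (ADM, 6 libraries) or in basal DMEM (6 libraries). The sorted pairs were technical duplicates and the cultured ones were triplicate wells, so that p-values over them measure the spread between these libraries, and the column names of the bulk table do not show the Thy1 sign, so that no group was made from it and libraries that share a name are called a and b. The study's text names the earlier day for its sorted Thy1- cells where the labels name the later one, so the sorted Pdgfra+ group may hold both days, and day may then differ between it and the Cd36+ group.

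Hox genes encode transcription factors with a homeodomain, and they lie in 4 clusters in which the order of the genes along the DNA matches the order of their expression domains along the body. Genes with low paralogue numbers are active from the hindbrain and neck downwards, and genes with high numbers only towards the lumbar, sacral and tail levels, so that the set of Hox genes in a cell of somite or neural tube carries a record of its position. Retinoic acid and Cdx factors help to open the clusters, Polycomb proteins keep unused genes silent, and TALE factors (Pbx, Meis and Pknox) bind DNA with Hox proteins. Because the whole trunk was pooled, the axial level of a cell is not known, and the position of a cell and its type cannot be told apart in any comparison here.

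In the GRCm38.p6 annotation the Hoxa cluster lies at chr6:52155590-52260880 on the minus strand, the Hoxb cluster at chr11:96194316-96368256, the Hoxc cluster at chr15:102921103-103036852 and the Hoxd cluster at chr2:74668310-74765142, the last 3 on the plus strand. The clusters span 105.3, 173.9, 115.8 and 96.8 kb. Reads of some members cannot be told from those of their neighbours: 9 Hox genes share exon sequence with another gene on the same strand and 10 with a gene on the opposite strand, which matters for the unstranded Smart-seq2 and bulk libraries. The largest overlaps were those of Hoxd3 with Gm28230 (53.1% of its exon bases), Hoxb3 with the antisense Hoxb3os (52.9%), Hoxd4 with Gm28230 (39.1%), Hoxa11 with the antisense Hoxa11os (35%) and Hoxb2 with Hoxb3os (27.3%), and values of these genes are uncertain to that extent.

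The sequence before the start of 4 members is printed because these are among the genes of the class differences described below. Hoxa3 and Hoxa5 are printed as genes higher in sorted Cd36+ libraries. Hoxa10 is printed as a gene with 0 counts in both of these libraries, where it was not alone, and Hoxd8 as a gene higher in dermal cells. They are the 250 bases before the RefSeq start (GRCm38.p6), at chr6:52213068-52213317, chr6:52204588-52204837, chr6:52240855-52241104 (the first of 2 starts) and chr2:74704365-74704614, in the direction of the gene, with CpG dinucleotides in capitals. In the annotation used for the clusters Hoxa3 runs from 52169062 to 52213336, so its stretch lies inside the annotated gene. That stretch belongs to a distant start, placed between Hoxa6 (52206288 to 52208722) and Hoxa7 (52214491 to 52221854). The stretches of Hoxa5, Hoxa10 and Hoxd8 lie directly before their annotated genes.
Hoxa3: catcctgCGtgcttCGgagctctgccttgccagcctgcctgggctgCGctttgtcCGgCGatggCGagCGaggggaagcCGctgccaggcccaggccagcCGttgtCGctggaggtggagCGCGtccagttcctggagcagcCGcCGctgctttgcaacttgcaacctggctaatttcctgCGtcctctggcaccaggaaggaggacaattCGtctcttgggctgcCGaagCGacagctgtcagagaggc
Hoxa5: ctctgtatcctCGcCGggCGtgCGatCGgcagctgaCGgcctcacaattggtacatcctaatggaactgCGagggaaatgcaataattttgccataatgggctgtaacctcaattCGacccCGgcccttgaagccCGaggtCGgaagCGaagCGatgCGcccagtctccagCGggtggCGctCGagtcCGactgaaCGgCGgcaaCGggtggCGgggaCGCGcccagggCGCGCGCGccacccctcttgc
Hoxa10: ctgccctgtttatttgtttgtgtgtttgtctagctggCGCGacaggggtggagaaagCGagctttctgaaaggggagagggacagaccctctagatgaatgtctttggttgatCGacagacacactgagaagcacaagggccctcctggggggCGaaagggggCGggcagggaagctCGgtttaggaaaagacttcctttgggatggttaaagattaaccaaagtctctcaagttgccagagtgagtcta
Hoxd8: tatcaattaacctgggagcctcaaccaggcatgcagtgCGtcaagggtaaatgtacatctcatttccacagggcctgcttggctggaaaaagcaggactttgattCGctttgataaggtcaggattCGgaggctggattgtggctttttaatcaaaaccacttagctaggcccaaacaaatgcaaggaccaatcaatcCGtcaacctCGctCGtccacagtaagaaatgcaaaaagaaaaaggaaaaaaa

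The stretches of Hoxa3 and Hoxa5 held 18 and 28 CpGs, and those of Hoxa10 and Hoxd8 held 7 and 6. The 24 RefSeq windows of 300 bases that matched 22 Hox genes held 4 to 45 CpGs each, and the median over all 32851 windows was 7.0. Windows were also searched on both strands for a TATA box, spelled TATAAA, which stood in 4 of the 24 Hox windows (Hoxa10, Hoxb8, Hoxd4 and Hoxd13) and in 13.6% of all windows. The core of a Cdx site, spelled TTTATG, stood in 5 of the 24 and in 11.9% of all windows. A composite Pbx-Hox site, spelled TGATTNAT, stood in 2 of the 24 and in 3.22% of all windows. A match is a description of the letters only.

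Cells were grouped without the Hox genes. After cells with no YFP count or over 8% mitochondrial counts were left out, 3852 of 3916 cells remained, with a median of 1607.5 to 5930 UMIs (unique molecule counts) per cell in the 10x libraries, and 3 of 2934 barcodes were shared between libraries. The clusters were named from marker lists as early progenitors (EP-like, 10.6% of the cells kept), late progenitors (LP-like, 19%), early muscle (EM-like, 18%), late muscle (LM-like, 6.18%), dermal fibroblasts (DF-like, 15.6%), brown adipocytes (BA-like, 4.52%), neurons (N-like, 18.2%), neural progenitors and glia (NP-like, 5.84%) and pericytes (PE-like, 1.51%), and 0.545% of cells stayed unnamed. No doublet caller was run. Class and day were partly tied: EP-like cells came almost all from E12.5, BA-like cells from E16.5, and DF-like and LP-like cells from E14.5 and E16.5.

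Hox RNA was most abundant in neural cells. Levels are given as CPM, the counts of a gene or group for every 1000000 counts of the same sum. In the 10x libraries N-like cells held 5196 Hox CPM at E12.5 (95% exact Poisson interval 5082 to 5311) and 4762 at E14.5, and NP-like cells 3249 at E12.5. EP-like cells followed with 862 (783 to 947) and EM-like cells of the same day with 499.5. All classes of later mesoderm lay lower, with 391.8 and 376.8 in DF-like cells of E14.5 and E16.5, 273.2 and 136.3 in LP-like cells, 136.3 and 162.2 in EM-like cells, 120.7 and 121.5 in LM-like cells, 162.7 in BA-like cells and 220.2 in PE-like cells. LM-like cells of E12.5 held 357.03. Intervals cover counting error only, since each value is a sum over the cells of 1 library.

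Neural cells were also highest in Smart-seq2, where sums are of expected counts, with 1736 and 1889 in N-like cells of E12.5 and E14.5, 941 in NP-like cells, 385.7 and 169.3 in DF-like cells, 298.03 in EP-like cells, 279.4 and 89.97 in LP-like cells, 231.4, 109.8 and 87.6 in EM-like cells of the 3 days, and 73.3 and 42.1 in LM-like cells. Hox levels were thus lower at E16.5 than at E14.5 in the DF-like, LP-like, EM-like and LM-like sums of Smart-seq2. Among plates with at least 5 cells of a class, EM-like values overlapped (49.12 to 152.57 CPM at E14.5, 52.85 to 138.49 at E16.5). Those of DF-like, LP-like and LM-like cells did not overlap between these days. EP-like plates of E12.5 ran from 44.35 to 636.63 CPM. In 10x the E16.5 value was below that of E14.5 in LP-like cells, and in DF-like, EM-like and LM-like cells its interval included the E14.5 value.

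**Figure D1:**
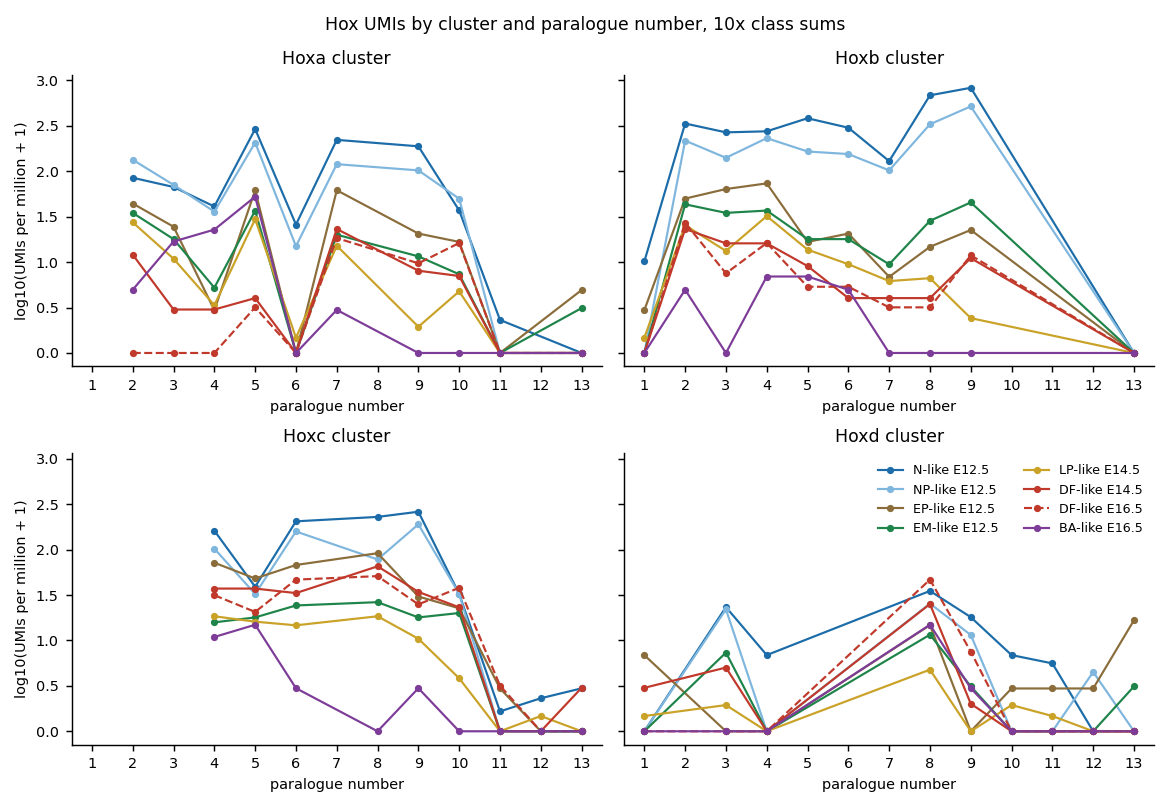
Hox levels in 10x sums of 8 classes, as log10 of CPM plus 1 (y axis) against paralogue number (x axis), in 1 panel per cluster; lines join neighbouring genes of a cluster and carry no error. N-like and NP-like sums lie highest over most genes, the BA-like line peaks at Hoxa5 (51.6 CPM), and Hoxb13 is at 0 throughout.

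The leading genes differed by class. In 10x, Hoxb9 (830 CPM), Hoxb8 (686) and Hoxb5 (382.97) were highest in N-like cells of E12.5, and Hoxb8 (1000), Hoxb9 (569) and Hoxa5 (404.1) at E14.5. NP-like cells had Hoxb9 (517.6), Hoxb8 (328.8) and Hoxb4 (230.8). EP-like cells had Hoxc8 (90.3), Hoxb4 (72.7) and Hoxc4 (70.7), and LP-like cells of E14.5 had Hoxb4 (31.1), Hoxa5 (28.8) and Hoxa2 (26.4). DF-like cells of E14.5 were led by Hoxc8 (64.5), Hoxc4 (36.3) and Hoxc5 (36.3), and those of E16.5 by Hoxc8 (50.1), Hoxc6 (45.7) and Hoxd8 (45.7). BA-like cells were led by Hoxa5 (51.6), Hoxa4 (21.8) and Hoxa3 (15.9), 3 neighbours in the Hoxa cluster. In muscle the leading genes changed with the day, from Hoxb9 (44.4), Hoxb2 (42.3) and Hoxa5 (35.98) in EM-like cells of E12.5 to Hoxa7 (13.46), Hoxb4 (12.3) and Hoxc8 (11.8) at E14.5, and Hoxa7 led LM-like cells of E12.5 (43.5).

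Clusters were used unequally. The Hoxb cluster gave 61.9% and 61% of the Hox UMIs of N-like cells at E12.5 and E14.5, and 57.1% in NP-like cells. The Hoxc cluster gave 57.8% and 55.5% in DF-like cells of E14.5 and E16.5, and the Hoxa cluster gave 61% of the BA-like sum, against 32.3% and 23.5% of the LP-like sums. The Hoxd cluster had its highest 10x share in DF-like cells of E16.5 (13.9%). Per kilobase of exon, the Smart-seq2 sums of DF-like cells had 55.2% and 50.5% from Hoxc, and those of N-like cells had 41.1% and 65.5% from Hoxb.

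The most posterior genes were rare everywhere. Hoxb13 had no UMI in any 10x cell, and the other genes of paralogue number 11 to 13 had 2 (Hoxd12) to 11 UMIs (Hoxd11) over all 10x cells. Hoxd13, a gene of the tail and limb ends, stood at 15.7 CPM in EP-like cells of E12.5 and at 2.12 in EM-like cells, with none in N-like cells. The highest-numbered gene with any UMI was Hoxa13, Hoxb9, Hoxc11 and Hoxd13 in EP-like cells, Hoxa11, Hoxb9, Hoxc13 and Hoxd11 in N-like cells of E12.5, Hoxa10, Hoxb9, Hoxc12 and Hoxd11 in LP-like cells of E14.5, Hoxa10, Hoxb9, Hoxc13 and Hoxd9 in DF-like cells of E14.5, and Hoxa7, Hoxb6, Hoxc9 and Hoxd9 in BA-like cells.

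The share of Hox counts from paralogues 9 to 13, called the posterior share here, put BA-like cells lowest among the 10x sums with at least 30 Hox UMIs. The BA-like value was 2.44% (2 of 82 UMIs, exact binomial interval 0.297% to 8.53%), 7.43% in LP-like cells of E14.5 (5.43% to 9.87%), 9.8% in those of E16.5, 15.7% in EP-like cells, 20.8% and 27.7% (21.2% to 35.1%) in DF-like cells of E14.5 and E16.5, 26.5% and 25.3% in N-like cells and 27.8% in NP-like cells. The mean paralogue number moved with it, from 4.74 (BA-like) and 4.90 (LP-like, E14.5) to 6.32 and 6.91 in DF-like cells. The intervals of the LP-like and DF-like sums of E14.5 do not overlap, and at E16.5 the BA-like and LP-like intervals do. Muscle lay between, at 20.8%, 11.5% and 24.4% in EM-like cells of the 3 days.

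**Figure D2:**
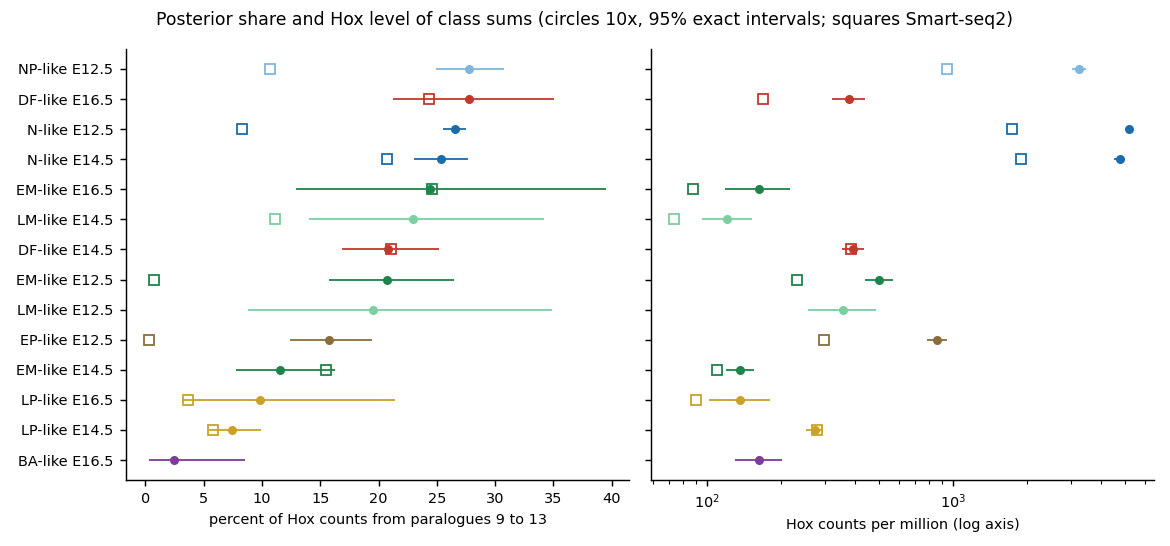
Left, the percent of Hox counts from paralogues 9 to 13; right, all Hox CPM on a log axis, for the 14 sums of class and day with at least 30 Hox UMIs. Circles with 95% exact intervals are 10x UMIs and open squares Smart-seq2 sums (left, per kilobase of exon); among the circles BA-like cells are lowest at 2.44% and LP-like cells next, and E12.5 squares lie far left of their circles.

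In Smart-seq2, LP-like cells had posterior shares of 5.76% and 3.69% per kilobase at E14.5 and E16.5 and DF-like cells 21.1% and 24.3%. By plate the LP-like shares ran from 0.319% to 21.3% and from 0.811% to 10.4%, and the DF-like ones from 12.09% to 51.6% and from 17.1% to 30.3%, so that plates of both classes overlapped at E14.5 and not at E16.5. LM-like cells of E16.5 had 0.681%. Too few BA-like cells of Smart-seq2 were kept for a sum. When all deposited cells were clustered, 60 BA-like cells of Smart-seq2 E16.5 had a posterior share of 0.939% and a mean paralogue number of 4.62. LP-like cells of E16.5 had 3.57% in that clustering. At E12.5 Smart-seq2 lay below 10x. EP-like cells had a posterior share of 0.323% in Smart-seq2 and EM-like cells 0.689%, with plates from 0 to 0.813% and from 0 to 4.84%, against 15.7% and 20.8% in the 10x library of the day. N-like cells of E12.5 had 8.28% (plates 2.34% to 30.9%) and 20.8% at E14.5 (16.1% to 23.9%). Which embryos and trunk levels each platform took is not known. RNA that leaks between droplets was considered beside this: the summed level of the 10 N-like marker genes was 194.4 CPM in EP-like cells of the 10x E12.5 library and 6368 in N-like cells, or 3.05%, and Hoxb8 and Hoxb9 stood at 2% and 2.6% of their N-like level, at or under that background. Hoxa9 (10.4%), Hoxc9 (11.3%) and Hoxc10 (68.6%) stood above it, as did 24 of the 34 Hox genes detected in those N-like cells. The part of free RNA in the platform difference was not tested.

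The detection of Hox genes per cell followed the same classes. Of Smart-seq2 cells, 93.5% of N-like cells of E14.5 had a count of a gene of paralogue number 9 to 13, 66.7% and 50.7% of DF-like cells of E14.5 and E16.5, 43.1% and 28.4% of LP-like cells, and 22.6% of EP-like cells of E12.5 (exact interval 15.6% to 31%). With each cell thinned to 100000 counts, the DF-like and LP-like shares of E16.5 became 37.5% and 12.6% and the EP-like share 8.4%. A cell had a median of 16 and 15 different Hox genes in the N-like classes of E12.5 and E14.5, 8.0 and 5.0 in DF-like cells, 6.0 and 4.0 in LP-like cells, 4.5 in EP-like cells, 4.0 in EM-like cells of each day, and 3.0 and 2.0 in LM-like cells. Cells of 1 plate or library are not replicates, and no test was made over them.

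Dermal and late progenitor cells, which share the pools (1 pool is 1 platform and day), differed by paralogue number. Of 31 Hox genes tested by edgeR's quasi-likelihood test on class sums with the pool as a block, 7 were higher in DF-like cells and 2 lower at an adjusted p under 0.05, where 11.5% of all 14185 genes were called, 5.19% higher and 6.34% lower. The median log2 difference was 2.82 over 8 genes of paralogues 9 to 13, −0.45 over 11 genes of paralogues 5 to 8 and 0.20 over 12 genes of paralogues 1 to 4, against −0.04 over all genes. On simulated counts this fit gave more false calls than any other fit here, in number and as a share of its calls. Its calls close to the threshold, Hoxa3 among them, are therefore less certain than their adjusted p shows. CPM beside these fits are over the 15146 genes that both platforms list, so they lie slightly above the levels given earlier.

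Hoxa5, which helps to pattern the neck and upper thorax, was lower. It stood at 3.13, 2.29, 1.61 and 0.346 CPM in DF-like sums of the 10x E14.5, 10x E16.5, Smart-seq2 E14.5 and Smart-seq2 E16.5 pools, and at 30.1, 11.2, 38.3 and 14.4 in LP-like sums of the same pools. Every LP-like value was above every DF-like value, and the log2 difference was −4.49 ± 0.54 (SE, n = 4 pools, edgeR adjusted p = 0.00056). Hoxa3 was lower too, at 2.09, 0, 1.86 and 0.55 against 10.3, 8.42, 8.01 and 4.96 CPM (−2.73 ± 0.73, edgeR adjusted p = 0.037).

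Hoxd8 rose in DF-like cells, at 25.1, 48.1, 26.7 and 23.01 CPM against 3.94, 8.42, 0.704 and 2.82, with no overlap between the classes (3.56 ± 0.54, edgeR adjusted p = 0.0021). Hoxc10, a gene of lumbar levels, stood at 22.98, 38.9, 15.5 and 7.06 CPM against 2.96, 0, 1.36 and 0.948 (3.34 ± 0.53, edgeR adjusted p = 0.0027). The trunk genes Hoxc9 (2.38 ± 0.42), Hoxa9 (3.06 ± 0.62), Hoxb9 (4.27 ± 0.93), Hoxc8 (1.57 ± 0.38) and Hoxc5 (1.13 ± 0.23) were higher as well, in 4 of 4 pools each, with edgeR adjusted p from 0.0053 to 0.025. These genes come from all 4 clusters, and the 3 called genes of paralogue 9 are members of Hoxa, Hoxb and Hoxc.

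For Hoxa10 and Hoxc4 the difference itself changed with the day (edgeR's test of the interaction, 2 of 31 Hox genes, where 3.76% of all genes were called): Hoxa10 had 6.27, 16.04, 20.4 and 2.17 CPM in DF-like and 3.94, 2.81, 7.32 and 0 in LP-like sums, in the pool order above, and Hoxc4 had 37.6, 32.1, 32.03 and 22.7 against 18.2, 14.03, 39.2 and 4.34.

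Each platform on its own gave fewer calls: 5 of the Hox genes in the 10x pools, all higher, and 0 in the Smart-seq2 pools, where Hoxa5 still differed by −4.95 and Hoxd8 by 4.12. Without the 10x E14.5 pool 4 Hox genes were called, and Hoxa3, Hoxa9, Hoxb9, Hoxc5 and Hoxc8 no longer were, while Hoxa5, Hoxd8, Hoxc10 and Hoxc9 stayed called without any one pool. The summed level of the N-like markers was 272.96 and 283.1 CPM in DF-like and 57.1 and 26.7 in LP-like 10x sums of E14.5 and E16.5, against 7941 in N-like cells of E14.5, and its part in the result was not tested.

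**Figure D3:**
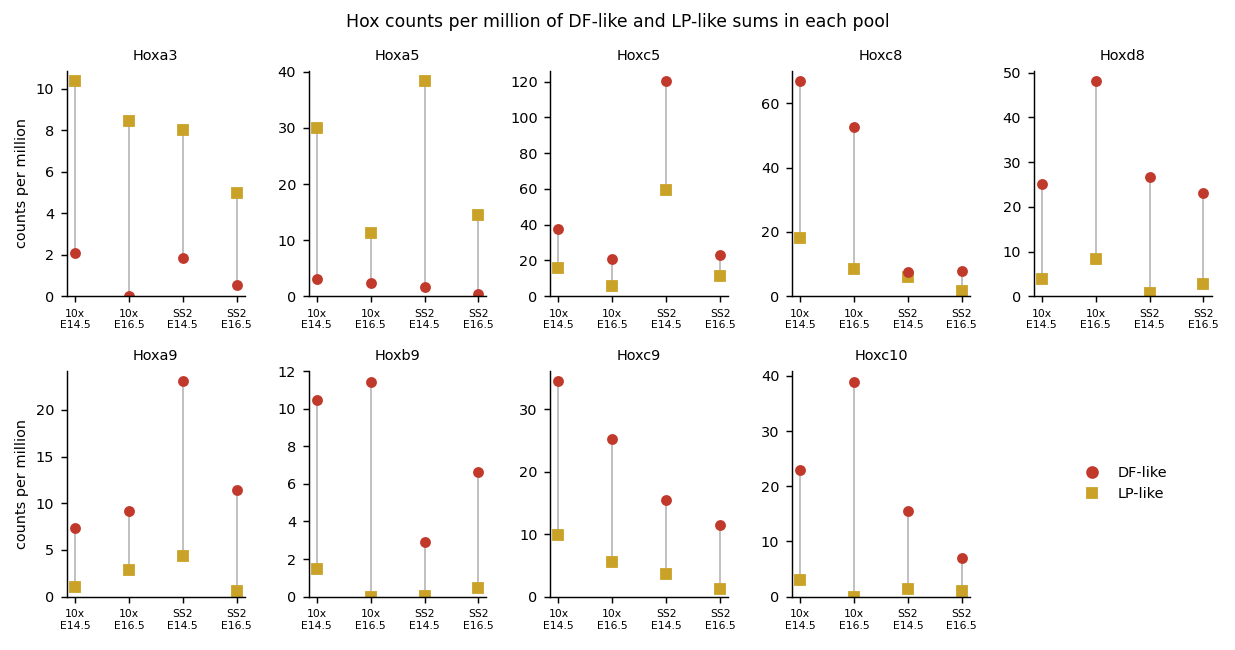
CPM (y axis, from 0) of the 9 Hox genes that passed the test between DF-like (circles) and LP-like sums (squares), in each of the 4 pools; a grey line joins the sums of 1 pool. Hoxa3 and Hoxa5 are higher in the LP-like sum of all 4 pools and the other 7 genes in the DF-like sum, by least for Hoxc8 in Smart-seq2 E14.5 (7.44 against 6.07).

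BA-like cells held more Hoxa4 and Hoxa5 RNA than LP-like cells of the same 10x library. They also held more Hoxa3, Hoxa4 and Hoxa5 RNA than DF-like cells, and sorted Cd36+ libraries held more than sorted Pdgfra+ ones. Among the cells kept, the 10x library of E16.5 was the only pool that held enough BA-like cells. Hoxa3, Hoxa4 and Hoxa5 together gave 45 UMIs in its BA-like cells and 7 in its LP-like cells. The ratio of their CPM was 4.77 (conditional exact interval 2.14 to 12.55, counting error only). Hoxa5 gave 26 against 4 UMIs (4.83, 1.67 to 19) and Hoxa4 11 against 0. Hoxa3 alone gave 8 against 3 UMIs (1.98, 0.475 to 11.59), with an interval that includes 1. For all paralogues 1 to 4 together the ratio was 1.02 (0.585 to 1.81). The 3 genes were grouped after their values had been seen. The earlier EP-like cells of E12.5 had Hoxa5 at 60.9 CPM and Hoxa3 at 23.6, against 51.6 and 15.9 in BA-like cells, with overlapping intervals. Over 5 clustering settings the ratio ran from 4.22 to 5.99.

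Against DF-like cells of the same library the contrast was wider. Hoxa3 to Hoxa5 gave 45 against 1 UMI (41, interval 6.99 to 1655), and paralogues 9 to 13 gave 2 against 48 (0.038, 0.00447 to 0.145). Hoxc8, known as a repressor of the brown fat programme, had 0 UMIs in BA-like and 23 in DF-like cells, Hoxc10 had 0 and 17, and Hoxc6 1 and 21. With 1 library there is no replicate check of these ratios.

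The sorted bulk libraries set Cd36+ against Pdgfra+ cells, in technical duplicates, so that the 2 Cd36+ libraries are 1 biological sample and the 10x ratios have no biological replicate here either. Cd36 is a fatty acid carrier of adipocytes, and the 10 BA-like markers summed to 28616 to 30974 CPM in the Cd36+ libraries and to 136.1 to 946 in the sorted Pdgfra+ libraries. LP-like markers, with Pdgfra among them, summed to 747 to 866 and to 33991 to 38282. In bulk RNA, fewer cells of a type and less RNA per cell cannot be told apart. Of 29 Hox genes tested, 3 were higher in Cd36+ libraries and 6 lower (edgeR, adjusted p under 0.05), and of all 17545 genes 43.2% were called, 21.4% higher and 21.8% lower, so that the number of Hox genes called is not above that of genes at large. By paralogue number the median log2 difference was 0.78 over paralogues 1 to 4, −0.41 over 5 to 8 and −2.80 over 9 to 13, against −0.03 over all genes.

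Hoxa5 stood at 15.97 and 21.5 CPM in the Cd36+ libraries and at 1.36, 2.72, 0.231 and 2.74 in Pdgfra+ libraries 1a, 1b, 2a and 2b (log2 difference 3.71 ± 0.68, edgeR adjusted p = 0.0037). Hoxa4 stood at 14.4 and 16.1 against 0.151, 1.52, 0 and 1.70 (4.47 ± 1.03, edgeR adjusted p = 0.01). Hoxa3 stood at 8.41 and 10.3 against 1.05, 4.86, 1.27 and 4.77 (1.96 ± 0.62, edgeR adjusted p = 0.038). Both Cd36+ libraries were above all 4 Pdgfra+ libraries for the 3 genes, and Pdgfra+ 1b and 2b were above 1a and 2a for each of them.

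Of the 8 posterior genes tested 3 were called, all lower in Cd36+ libraries. Hoxa10 had 0 counts in both Cd36+ libraries and 5.27, 1.59, 2.89 and 0.709 CPM in the Pdgfra+ libraries, so that its pooled level of 2.69 CPM was at least 51.8-fold that of the Cd36+ group (floor of 3 counts over the group, edgeR adjusted p = 0.0062). Hoxc10 stood at 0.121 and 0.0607 CPM against 7.98, 2.32, 4.39 and 1.04 (−5.11 ± 1.09, edgeR adjusted p = 0.0075). Hoxd10 stood at 0 and 0.0304 CPM against 0.462 to 0.942 (−4.82 ± 1.03). Its Cd36+ level lay under the floor of 0.0519 CPM, so that the size of this difference is uncertain. Of the genes with lower numbers Hoxc8 (−3.22 ± 1.03) and Hoxa7 (−1.46 ± 0.43) were lower too, and so was the anterior gene Hoxd3 (0.442 and 0.182 CPM against 3.88 to 6.76, −3.80 ± 0.58, edgeR adjusted p = 0.0016), which shares exon bases with Gm28230. Hoxd8, at 4.34 and 4.61 CPM, lay inside the Pdgfra+ range of 1.52 to 15.4.

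Per kilobase of exon, the Hoxa cluster gave 73.2% and 72.7% of the Hox signal of the Cd36+ libraries and 20.6% to 37.9% of that of the Pdgfra+ libraries. The posterior share was 2.47% and 1.86% against 8.83% to 31.5%, and the mean paralogue number 4.37 and 4.43 against 4.90 to 6.73. The groups did not overlap in 5 of 29 Hox genes that were higher, where 22.2% of all genes were so, and in 11 that were lower, where 36.8% were (16 in either direction, where 59.1% were). Without the second Cd36+ library 4 Hox genes were called (Hoxa5, Hoxa10, Hoxd3 and Hoxd10), and Hoxa3, Hoxa4, Hoxa7, Hoxc8 and Hoxc10 no longer were.

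**Figure D4:**
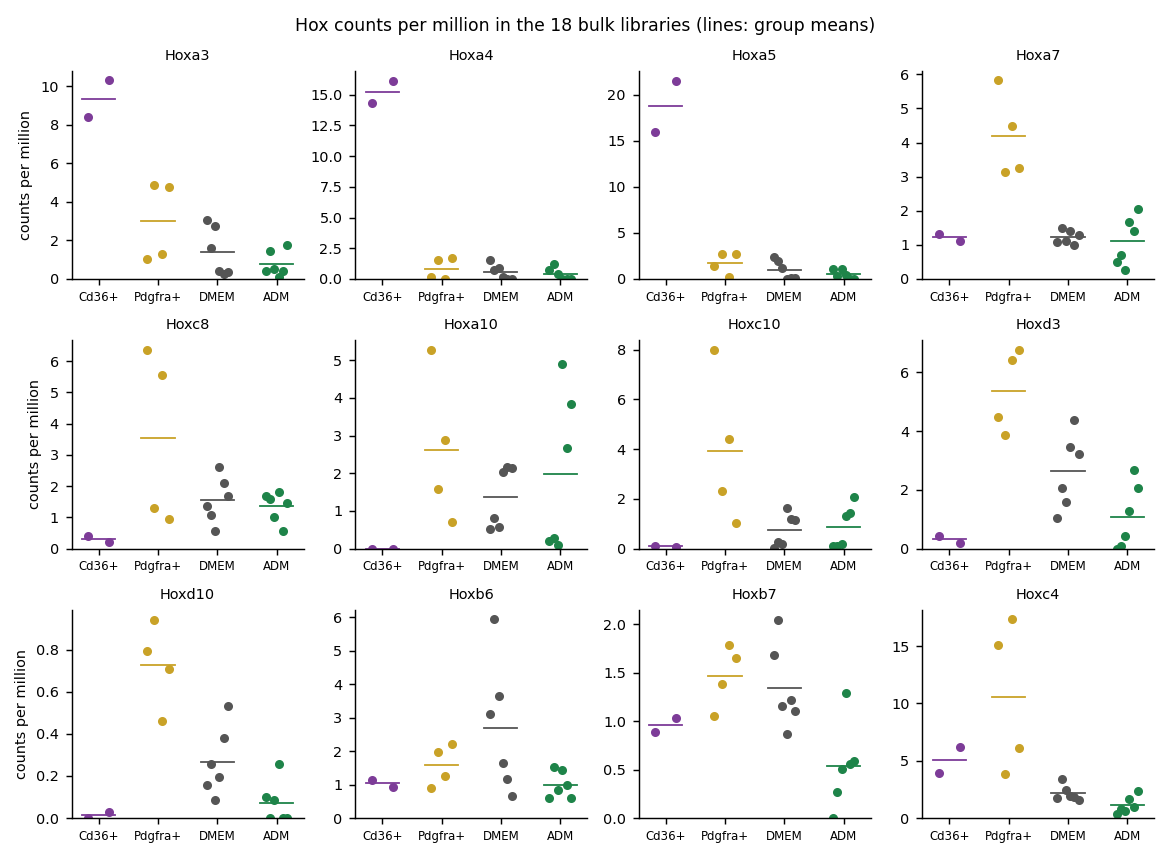
CPM (y axis, from 0, own scale per panel) of the 9 Hox genes called between Cd36+ and Pdgfra+ libraries and of Hoxb6, Hoxb7 and Hoxc4, in the 18 bulk libraries; each point is 1 library and a line marks the group mean. Both Cd36+ points lie above all others for Hoxa3, Hoxa4 and Hoxa5, and at or near 0 for Hoxa10, Hoxc10, Hoxd3 and Hoxd10.

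Neurons had higher levels of genes from all 4 Hox clusters. Of 34 Hox genes tested between N-like cells and the progenitors (EP-like plus LP-like) of the same 4 pools at E12.5 and E14.5, 19 were higher in N-like cells and 0 lower (edgeR, adjusted p under 0.05), where 24.3% of 14387 genes were called, 10.6% higher and 13.6% lower. By cluster the 19 were 6 Hoxa, 8 Hoxb, 3 Hoxc and 2 Hoxd genes. The median log2 difference rose from 1.65 over paralogues 1 to 4 to 2.90 over 5 to 8 and 3.65 over 9 to 13, with −0.10 over all genes.

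Hoxb9 stood at 871, 608, 52.8 and 170 CPM in N-like sums of the 10x E12.5, 10x E14.5, Smart-seq2 E12.5 and Smart-seq2 E14.5 pools and at 22.5, 1.48, 0.18 and 0.0514 in the progenitors (8.08 ± 1.03, n = 4 pools, edgeR adjusted p = 0.0034). Hoxb8 ran from 23.7 to 1069 CPM in the N-like sums and from 0.15 to 14.3 in the progenitors (7.28 ± 0.66, edgeR adjusted p = 0.0014). Hoxb5 stood at 401.8, 284.2, 235.5 and 158.5 against 16.4, 13.3, 6.66 and 7.43 (4.42 ± 0.33, edgeR adjusted p = 0.00095). None of the 3 genes overlapped between the classes.

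Hoxb6 (5.37 ± 0.51), Hoxb7 (5.94 ± 0.60), Hoxa9 (5.61 ± 0.72) and Hoxa7 (2.90 ± 0.38) followed. The anterior genes Hoxb2 (1.92 ± 0.25) and Hoxb4 (2.19 ± 0.31) and the Hoxc gene Hoxc8 (1.85 ± 0.26) rose by less, and all 7 had an edgeR adjusted p from 0.0016 to 0.0048. Within Hoxb the difference grew with each paralogue number from Hoxb4 to Hoxb9. Hoxc5 (−0.65 ± 0.43) and Hoxa2 (0.34 ± 0.38) were not called. In Smart-seq2 pools alone 7 Hox genes were called, all among the 19. Of the pathway lists below, the TALE genes Pbx3, Pbx4, Meis3, Pknox1 and Pknox2 were higher and none lower.

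**Figure D5:**
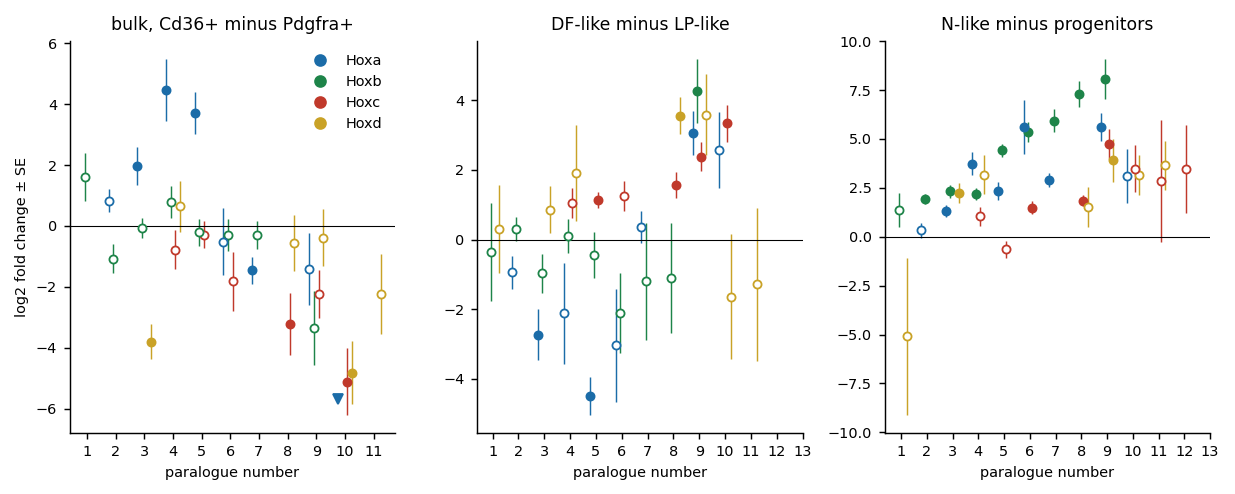
Log2 fold change with its SE (y axis, own scale per panel) against paralogue number (x axis) for Hox genes tested in 3 comparisons, coloured by cluster; filled points passed the test and open ones did not. The triangle marks Hoxa10 at its bound of −5.69, Hoxa11 is left out on the right because progenitors held no count of it, and values fall with paralogue number on the left and rise with it on the right.

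Between muscle and mesenchymal progenitors 4 Hox genes were called. Of 32 Hox genes tested between EM-like and progenitor sums over 6 pools, 1 was higher and 3 lower, where 24.8% of 13940 genes were called, 10.2% higher and 14.6% lower, and the median log2 difference was −0.47 over the Hox genes and −0.15 over all genes. Hoxc5 stood at 17.4, 9.12, 0, 12.8, 18.3 and 7.06 CPM in EM-like sums of 10x E12.5, E14.5, E16.5 and Smart-seq2 E12.5, E14.5, E16.5 and at 49.1, 15.7, 5.55, 87.5, 57.6 and 11.3 in progenitors, lower in 6 of 6 pools (−1.49 ± 0.36, edgeR adjusted p = 0.013). Hoxa5 (−2.47 ± 0.71, edgeR adjusted p = 0.027) and Hoxb3 (−1.22 ± 0.37, edgeR adjusted p = 0.035) were lower in 6 of 6 pools as well.

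Hoxa11 was higher at the threshold (edgeR adjusted p = 0.049): it had no count in progenitors of any pool, and stood at 3.69, 0.45 and 2.71 CPM in EM-like sums of 10x E16.5, Smart-seq2 E14.5 and Smart-seq2 E16.5 and at 0 in the other 3. Its call was lost without any one of the 10x pools. Without any one of the Smart-seq2 pools it did not pass the filter on low counts, and DESeq2 gave it no adjusted p. Without 10x E12.5, 10x E14.5, 10x E16.5, Smart-seq2 E14.5 or Smart-seq2 E16.5 in turn 2, 1, 1, 2 and 1 Hox genes were called, and Smart-seq2 pools alone called 0. Hoxc5 was called without any one pool.

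In differentiating muscle, 2 of 19 Hox genes tested were lower in LM-like than in EM-like sums and 0 higher, where 24% of 10173 genes were called, 11.4% higher and 12.6% lower. Hoxc4 stood at 8.99, 3.34, 0, 0.642 and 0.422 CPM in LM-like sums of 10x E12.5, E14.5, E16.5 and Smart-seq2 E14.5 and E16.5 and at 15.2, 9.69, 22.1, 12.8 and 5.20 in EM-like sums (−2.87 ± 0.94, edgeR adjusted p = 0.024). Hoxc8 differed by −2.94 ± 1.04 (edgeR adjusted p = 0.038). Both calls were fragile: 0 Hox genes were called without any one of the 10x E14.5, 10x E16.5, Smart-seq2 E14.5 and Smart-seq2 E16.5 pools, or in either platform alone. In the 10x E12.5 pool Hoxc8 stood at 26.98 CPM in LM-like and 26.04 in EM-like sums.

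Between EM-like cells of E16.5 and E12.5, 1 of 26 Hox genes was lower and 0 higher, where 9.97% of 12444 genes were called, 5.42% higher and 4.55% lower. It was Hoxd3 (−2.78 ± 0.81, edgeR adjusted p = 0.01), at 13.9, 3.59 and 1.85 CPM per kilobase in Smart-seq2 on the 3 days in order and at 6.35, 0.561 and 0 CPM in 10x. These 10x values rest on very few UMIs and lie near the floor. In Smart-seq2 its values are uncertain, since Hoxd3 shares 53.1% of its exon bases with Gm28230. By DESeq2 it differed by −2.88 (DESeq2 adjusted p = 0.056), and no Hox gene was called. By edgeR no Hox gene was called without the Smart-seq2 E12.5 or the Smart-seq2 E16.5 pool, and without the 10x E12.5 pool Hoxa9, Hoxa10 and Hoxc10 were called too, as higher at E16.5. Among the 26 Hox genes 9 had an unadjusted edgeR p under 0.05, as had 2639 of all 12444 genes. On simulated counts this fit recovered 2.06% of 2-fold and 49.5% of 4-fold changes, so that genes not called may still differ.

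Between LP-like and EP-like cells, which share no pool, 0 of 30 Hox genes passed by edgeR, and 1, Hoxb4, by DESeq2. Of all 14051 genes 5.89% were called by edgeR, 4.92% higher and 0.961% lower. An unadjusted edgeR p under 0.05 was held by 2833 of all genes and by 2 Hox genes. The largest of these Hox differences was that of Hoxb4, at −1.20 ± 0.42 (edgeR adjusted p = 0.12). Without the Smart-seq2 E14.5 pool Hoxc4, Hoxc5 and Hoxc6 were called as lower in LP-like cells. On simulated counts this fit recovered 1.09% of 2-fold and 33.3% of 4-fold changes, so that the lack of calls does not show unchanged Hox levels. Class and day cannot be told apart in this comparison.

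Culture was followed by few calls among Hox genes. Sorted Pdgfra+ libraries held 59.9 to 111.99 Hox CPM, DMEM libraries 30.3 to 45.7 and ADM libraries 10.3 to 36.3, so that no cultured library reached the lowest sorted one. The fit scales each library by TMM factors, however, which lay between 2.09 and 2.15 in sorted Pdgfra+ and between 0.772 and 0.878 in DMEM libraries, and after that scaling the median log2 difference was 0.29 over Hox genes and −0.31 over all genes. By CPM the groups did not overlap for 6 of 29 Hox genes, all lower in DMEM, where 62.7% of all genes were lower, 3.95% higher and 66.6% either.

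After scaling, 2 of 29 Hox genes were higher in DMEM than in sorted cells and 2 lower (edgeR, 53.9% of 17586 genes called, 20.2% higher and 33.6% lower). Hoxb6 stood at 3.12, 5.95, 3.65, 1.64, 1.18 and 0.664 CPM in DMEM libraries 1a, 2a, 3a, 1b, 2b and 3b and at 0.903, 1.96, 1.27 and 2.22 in sorted libraries 1a, 1b, 2a and 2b. These ranges overlap, and the scaled log2 difference was 2.11 ± 0.55 (edgeR adjusted p = 0.0043). Hoxb7 (1.22 ± 0.45), Hoxc4 (−0.97 ± 0.37) and Hoxa6 (−2.67 ± 1.00) had an edgeR adjusted p from 0.029 to 0.039. Of the fits without 1 library, 4 of 10 lost the call of Hoxb7, 6 of 10 that of Hoxc4 and 5 of 8 that of Hoxa6. Hoxa6 lay near the floor, at 0 to 0.0963 CPM in DMEM (median 0) and at 0.0577 to 0.725 in sorted libraries. Without sorted library 1b, DMEM 2b or DMEM 3b 2 Hox genes were called in each case, and Hoxb6 was among them. With the replicate number as a block Hoxb6 alone was called. By their labels sorted and cultured cells also differ in day. DMEM libraries a and b stand far apart in their BA-like markers.

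Libraries of each medium came in 2 sets that stood far apart, which the fit pools. BA-like markers summed to 59870 to 62583 CPM in ADM libraries 1a to 3a and to 1920 to 2067 in 1b to 3b, and to 18894 to 27434 in DMEM libraries 1a to 3a and to 4.09 to 5.22 in 1b to 3b. All Hox genes together stood at 10.3 to 12.8 and 33.5 to 36.3 CPM in ADM a and b, and at 30.3 to 40.7 and 37.1 to 45.7 in DMEM a and b, values that were not tested within sets because the names do not tie a set of one medium to a set of the other. Of 16 Hox genes tested between ADM and DMEM, 0 passed by edgeR and 0 by DESeq2. Of 12029 genes 5.69% were called by edgeR, 2.75% higher and 2.94% lower. An unadjusted edgeR p under 0.05 was held by 0 of the Hox genes and by 3517 of all genes. Without overlap were 0 Hox genes, where 0.474% of all genes were so and higher, 3.81% lower and 4.28% either. Hoxb7 came closest, at 0 to 1.29 CPM in ADM and 0.866 to 2.05 in DMEM (−0.95 ± 0.46, edgeR adjusted p = 0.19). Hoxa5 stood at 0 to 1.11 CPM in ADM and at 0 to 2.34 in DMEM, so that no cultured library reached the 15.97 CPM of the sorted Cd36+ cells.

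Partners and regulators of Hox proteins were read from fixed lists. Of 9 TALE cofactors, 6 were lower in Cd36+ than in Pdgfra+ libraries and 0 higher, where 21.8% and 21.4% of all genes were, with Meis3 (−3.73 ± 0.35) and Meis1 (−1.87 ± 0.20) among them. EM-like sums had 2 TALE genes higher (Pknox1, Pknox2) and 2 lower than progenitors (Meis1 at −1.90 ± 0.26, Meis2 at −1.54 ± 0.19), where 10.2% of all genes were higher and 14.6% lower. Of the upstream genes, Cyp26b1, an enzyme that degrades retinoic acid, was higher in DF-like than LP-like sums (4.98 ± 0.75) while Cyp26a1 was lower (−4.70 ± 1.29). No other of the 5 upstream genes tested was called there, where 5.19% of all genes were higher and 6.34% lower. In DMEM against sorted libraries 4 of the 5 were lower and 1 higher, where 33.6% of all genes were lower and 20.2% higher. Rarb, a retinoic acid receptor gene that retinoic acid itself induces, was among those lower (−6.25 ± 0.83), as were Cyp26a1 and Cyp26b1. In N-like cells against progenitors 1 of the 5 was higher, Rarb (1.22 ± 0.36), and 1 lower. Of all genes 10.6% were higher and 13.6% lower in that comparison. Each value is a log2 difference with its SE, past the threshold by edgeR.

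Of 11 chromatin regulators, 5 were higher and 3 lower in Cd36+ libraries, where 43.2% of all genes were called, 21.4% higher and 21.8% lower. Those higher were the Polycomb genes Jarid2 (2.05 ± 0.20), Suz12 (1.81 ± 0.15), Ring1 (1.30 ± 0.37), Eed (0.96 ± 0.15) and Ezh2 (0.85 ± 0.21). The Polycomb gene Rnf2 (−0.58 ± 0.15), Kmt2a (−0.58 ± 0.17) and Kdm6b (−0.88 ± 0.28) were lower, and the Polycomb genes Bmi1 and Ezh1 were not called. In DMEM against sorted libraries 6 were lower and 0 higher, where 33.6% of all genes were lower and 20.2% higher, with Kmt2a at −2.42 ± 0.20 and Ezh2 at −1.46 ± 0.18. In LM-like sums Ezh2 (−1.94 ± 0.24) and Eed (−1.51 ± 0.32) were lower and Ezh1 higher (2.54 ± 0.51). Between DF-like and LP-like sums 0 of the 11 passed.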

How the data were processed

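Per the labels and the study's methods, the 10x values are UMI counts that the authors made with Cell Ranger 3.0.1 on GRCm38.p6 and deposited unnormalised. The Smart-seq2 values are expected counts that the authors estimated with kallisto 0.44.0 and summed per gene. The bulk values are whole counts of reads per gene as deposited, made from unstranded Smart-seq2 libraries of 3390851 to 35332908 counts, with an aligner and counter not given in the sources used here. Expected counts were rounded for tests.

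Members and lists were chosen with earlier results of these data known. Cells with no YFP count or over 8% mitochondrial counts were left out, and the rest were clustered with Seurat 5.3.0 (2000 variable genes, 30 components, resolution 0.8) after 36 genes, the Hox genes among them, had been removed. A cluster took a name where its marker score reached 0.7, a limit set after the scores were seen, and at least 3 markers stood in 5% of its cells. Counts were summed per class and pool (at least 20 cells). edgeR 4.0.16 (TMM scaling, filterByExpr, quasi-likelihood test, Benjamini-Hochberg adjustment over all genes, threshold 0.05) was run in R 4.3.3 with the pool as a block, or the platform as a term where classes share no pool. DESeq2 1.42.0, other scalings, filters and clusterings, and fits without each library or pool were alternatives. All Hox genes past the threshold are named where there are at most 10, otherwise the 10 with the smallest adjusted p. The fits were tested on simulated counts, where false calls were most frequent in the DF-like against LP-like fit (33 of 141 calls). Of 2-fold changes the fits recovered from 0% (N-like against progenitors) to 34.8% (DF-like against LP-like). Values of a few single genes are not reported here or drawn in the plots. A comparison by Thy1 sign was planned and not made, since the bulk column names do not give the sign. Pools hold several embryos each, and intervals cover counting error only (95%, floor of 3 counts).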

Additional observations from a re-analysis of the deposited data

Results flagged for a closer look

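Of 45 sets of 4 to 10 bulk libraries compared for a value far from the rest, 1 held such a value, and chance alone gives about 1 in 20. It was Hoxa6 in DMEM, where the highest of 6 libraries stood at 0.0963 CPM and the next at 0.0283. The median of these libraries was 0, so that the value lies near the floor.

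DF-like sums stood further above LP-like ones at E16.5 than at E14.5 for Hoxa10, by 5.39 ± 1.59 on the log2 scale (SE, edgeR adjusted p = 0.025), and for Hoxc4, by 1.89 ± 0.60 (edgeR adjusted p = 0.044). LP-like cells of the Smart-seq2 E16.5 pool held no count of Hoxa10, so that its fitted value depends on the prior count and is no bound. In 10x Hoxc4 was higher in DF-like sums on both days.

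Of rows outside the comparisons, a second row named Hoxd4 held 0.928 CPM (UMIs) over all 10x cells, the same as the first row. The antisense genes Hoxaas3 and Hoxb5os held 15.04 and 34.35 CPM in the same table.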

How the results depend on the processing

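Of the alternative values of named Hox genes 79.34% kept their side of the threshold, 20.66% no longer passed it and 0 reversed, and of the alternative counts and shares 38 moved (19.39%). Leaving out 1 library or pool at a time gave 4 to 11 called Hox genes for Cd36+ against Pdgfra+, 0 for ADM against DMEM, 2 to 5 for DMEM against sorted, 4 to 11 for DF-like against LP-like, 0 to 2 for LM-like against EM-like, 1 to 4 for EM-like against progenitors, 13 to 19 for N-like cells, 0 to 3 for LP-like against EP-like and 0 to 4 for EM-like cells by day. In 10x pools alone 5 Hox genes were called for DF-like against LP-like, 0 for LM-like against EM-like and 1 for LP-like against EP-like, and in Smart-seq2 pools alone 0, 0 and 7 for DF-like, LM-like and N-like cells and 0 for EM-like against progenitors. With the platforms clustered alone the counts were 0 for LM-like and 2 for EM-like cells against progenitors, and with a marker score of 0.8 (chosen after seeing the data) 0 for LM-like cells. DESeq2 called 1 for LP-like against EP-like and 0 for EM-like cells by day. The causes were not tested.

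The posterior share of N-like cells in Smart-seq2 E14.5 was 26.9% from raw counts and 20.8% per kilobase. With at least 5 expected counts, the shares of Smart-seq2 cells with a posterior gene were 35.6% (DF-like, E16.5), 9.09% (LP-like, E16.5) and 2.42% (EP-like). After thinning to 100000 counts they were 18.06%, 2.3% and 0.84% at the same limit. With any count after thinning they were 37.5%, 12.6% and 8.4%. Same-numbered bulk libraries did not deviate together (correlations −0.08 to 0.02), so that the replicate block joins only numbers: with it 8 Hox genes were called for Cd36+ against Pdgfra+, 0 for ADM against DMEM and 1 for DMEM against sorted. DESeq2's scaling moved the median of all genes by −0.14, −0.12 and −0.11 (log2) for LM-like against EM-like, LP-like against EP-like and EM-like cells by day. Not run were the comparisons by Thy1 sign, LP-like against EP-like at resolution 1.2 or a score of 0.8, where no EP-like cluster was named, and EM-like cells by day in 1 platform. Axial level was not recorded, and 1 library a day limits 10x values.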

Other observations

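The share of posterior Hox genes varied between bulk libraries of the same group. Sorted Pdgfra+ libraries 1a and 2a had posterior shares of 31.5% and 21.2% with Thy1 at 109.3 and 86.2 CPM, and libraries 1b and 2b had 16.4% and 8.83% with Thy1 at 5.87 and 4.77 CPM. DMEM libraries 1a, 2a and 3a had 8.33%, 10.8% and 9.98% with Thy1 at 5.97, 8.06 and 9.03 CPM, while 1b, 2b and 3b had 33.4%, 34.2% and 32.2% with Thy1 at 59.1, 64.8 and 54.7 CPM. ADM libraries 1a, 2a and 3a had 15.1%, 5.67% and 17% with Thy1 at 0.992, 1.43 and 2.38 CPM, and 1b, 2b and 3b had 35.8%, 41.3% and 32.2% with Thy1 at 32.3, 25.6 and 28.6 CPM. The Thy1 sign of these libraries was not assigned, and no test was made.

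Outside the Hox genes themselves, Evx1 and Evx2, homeobox genes beside the 5' ends of the Hoxa and Hoxd clusters, had 4 and 6 UMIs, all in N-like cells of E12.5. Hotair, a non-coding gene of the Hoxc cluster, had 0 UMIs in every class.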
